A study of Mus musculus with 18 samples.

Results

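The neural cell adhesion molecules described here are 9 genes of 46078 in the RNA-seq table, *Ncam1*, *Ncam2*, *L1cam*, *Chl1*, *Nrcam*, *Cadm1*, *Cntn1*, *Cntn2* and *Nlgn1*, chosen by name as immunoglobulin-type and synaptic adhesion genes. Their open chromatin is given by 83 of the 111664 ATAC-seq peaks, namely those lying between 5000 bp upstream of a member's start and its end. All 9 genes and 80 of the 83 peaks passed the filter on low counts. The study asked how the methyltransferase CARM1 and its substrate, the transcription factor NFIB, act in mouse small cell lung cancer. RNA-seq and ATAC-seq were each performed on 3 tumors per genotype, from independent animals. The control, TKO, carried conditional alleles labelled Rb1L/L, Rbl1L/L and p53L/L. The CARM1 knockout added a conditional Carm1 allele, and the NFIB mutant added the knockin NfibR388K, in which the arginine that CARM1 methylates is a lysine. In all 3 genotypes Adenovirus-Cre was given into the lungs at 8 weeks of age and tumors were taken 28 weeks later. Cre thus acted in whichever lung cells took up the virus, and the Nfib change was present in every cell of the mouse. The methods name Rbl1 in one place and Rbl2 in another. They describe cells sorted for a tdTomato reporter, while the results speak of tumor biopsies.

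These proteins sit in the plasma membrane and hold cells to one another. NCAM1 and NCAM2 bind their own kind on the neighbouring cell. L1CAM, CHL1 and NRCAM form the L1 family that guides growing axons and couples to ankyrins. The contactins are held in the membrane by a lipid anchor, and CADM1 and NLGN1 bind partners across the synaptic cleft. NCAM1, known in the clinic as CD56, is a standard marker of neuroendocrine tumors, of which small cell lung cancer is one.

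Libraries held between 15848866 and 20915057 counts on genes and between 26917178 and 47653979 counts on peaks. Levels are given in CPM, counts per 1000000 after TMM scaling. A count of 3 corresponded to 0.131 to 0.203 CPM for RNA, and limits of this kind cover counting error only. A gene was called where its adjusted p was below 0.1 and its log2 fold change reached 0.8 in size, and a peak where it reached 0.5. All p-values given below came from edgeR (quasi-likelihood), unless DESeq2 is named, and were adjusted by the Benjamini-Hochberg method over every gene or peak tested. Libraries were joined to genotypes through short column names whose letters were read as the genotype names of the study. *Carm1* RNA was 44.5 to 103 CPM in TKO and 50.8 to 79.1 CPM in the CARM1 knockout, so it did not check that label.

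The tumors differed in cell-type markers, and 1 library stood apart. The summed level of 12 neuroendocrine markers was 1609 to 3678 CPM in TKO, 4.57 to 39.8 CPM in 5 of the 6 mutant libraries, and 2004 CPM in CARM1 knockout replicate 3. The summed level of 8 fibroblast markers was 130 to 186 CPM in TKO and 10242 to 26808 CPM in the mutants. Of the 8, 7 were called higher in the CARM1 knockout and 6 in the NFIB mutant, beside 20.5% and 22.3% of all genes. *Fbln1* was the largest part of the TKO sum, with 63.9 to 166 CPM, and was not called in either mutant. Leukocyte markers summed to 3.63 to 54.3 CPM in TKO, 180 to 2670 CPM in the CARM1 knockout and 26.8 to 526 CPM in the NFIB mutant, with *Cd3e* at 3 counts or fewer in every library. Schwann cell markers summed to 8.27 to 15.4 CPM in TKO and 0.949 to 42.0 CPM in the mutants, with the highest values from *Erbb3*, and *Cdh19* was at 3 counts or fewer in every library. Endothelial markers summed to 1.82 to 73.9 CPM over all libraries, and *Emcn* had no count in any. Lung epithelial markers summed to 282 to 630 CPM in TKO, 2.71 to 523 CPM in the CARM1 knockout and 1.08 to 2179 CPM in the NFIB mutant, the highest value coming from replicate 1. In TKO *Nkx2-1* made up most of the sum, with 236 to 601 CPM, while *Sftpb* was at 0.769 CPM or less. In NFIB mutant replicate 1 *Sftpb* had 1737 CPM, and in CARM1 knockout replicate 3 *Cdh1* had 258 CPM. The part of these differences in the results below was not tested. In bulk samples, fewer cells of a type and less RNA per cell cannot be told apart.

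No member was called higher in either mutant, beside 20.5% of all genes in the CARM1 knockout and 22.3% in the NFIB mutant. In the CARM1 knockout, 3 of 9 members were called lower, *Ncam2*, *Cntn1* and *Nlgn1*, beside 18.3% of all genes tested. The count was 5 without CARM1 knockout replicate 3, and 2 without any 1 TKO library or CARM1 knockout replicate 1 or 2. In the NFIB mutant, 6 of 9 were called lower, the same 3 with *Ncam1*, *L1cam* and *Cntn2*, beside 23.5% of all genes. The 3 shared calls stood beside 15.4% of all genes called lower in both, and none was higher in both, beside 17.9%. The median log2 fold change of the members was -2.17 in the CARM1 knockout and -3.26 in the NFIB mutant, while that of all genes was -0.03 and -0.05. For 6 members every mutant library lay below every TKO library, and this held for 23.3% of all genes. Between the CARM1 knockout and the NFIB mutant no member was called, with 2 of 9 at an unadjusted p under 0.05, 0 called by DESeq2 and a smallest adjusted p of 0.526 by edgeR. Over all genes edgeR called 0 of 15514 between the mutants, with 1414 at an unadjusted p under 0.05. DESeq2 called 317 higher and 223 lower of 16763 genes. Both mutants were compared with the same 3 TKO libraries, so their calls are not independent.

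**Figure D1:**
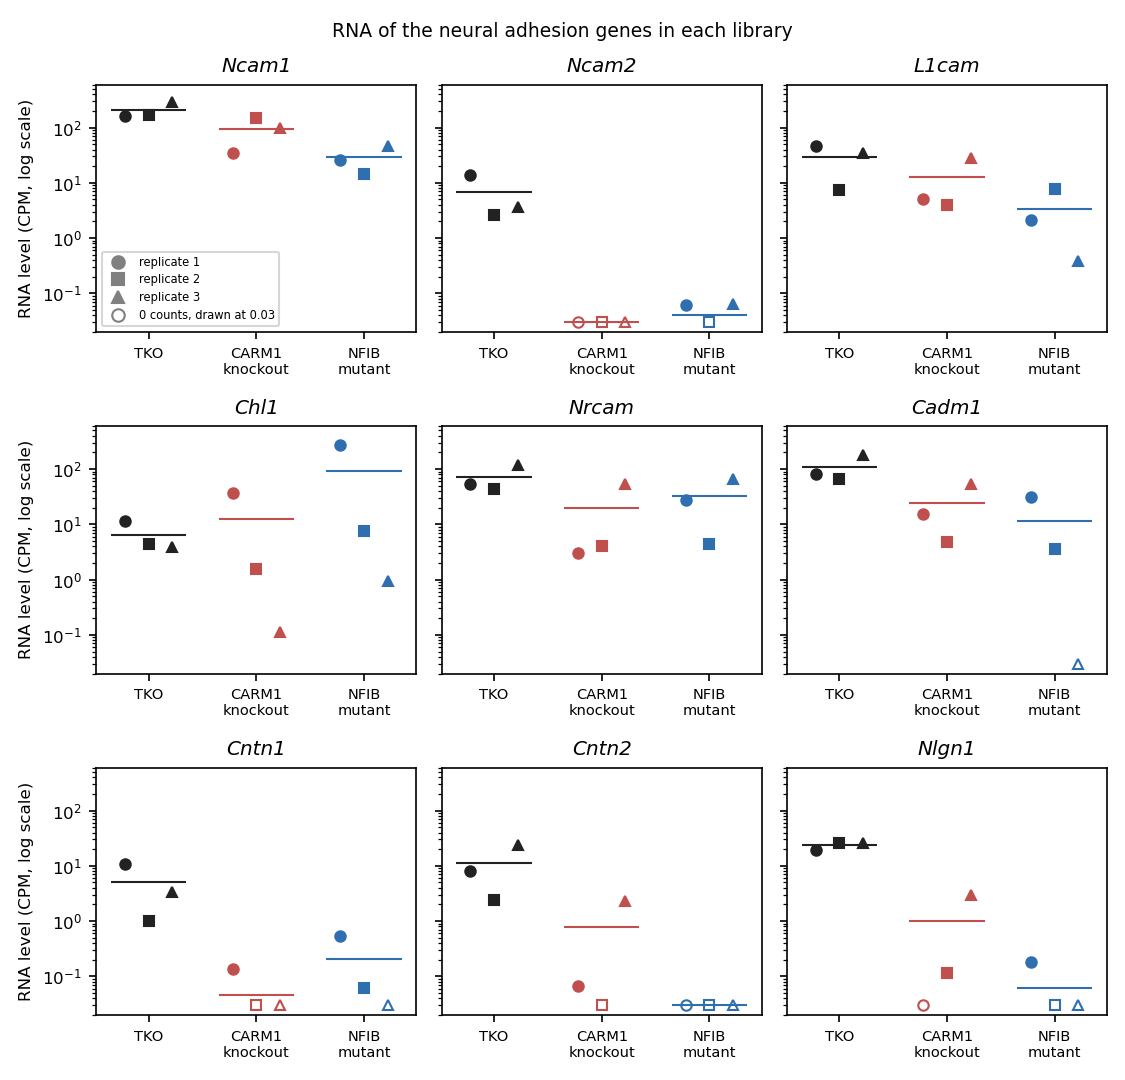
RNA level of each gene in CPM on a log scale, by genotype. Each point is 1 library, the shape gives its replicate number, horizontal lines are means, and open points and means of 0 are drawn at 0.03 CPM. *Ncam2*, *Cntn1*, *Cntn2* and *Nlgn1* sit near or at 0 in most mutant libraries, while *Chl1* spans 0.112 to 269 CPM across the 6 mutant libraries.

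*Ncam1*, on the minus strand at chr9:49502136-49798925 (GRCm38), was the most abundant member in TKO. TKO had 159, 170 and 284 CPM of it, against 34.6, 149 and 99.3 CPM in the CARM1 knockout and 25.5, 14.2 and 46.6 CPM in the NFIB mutant. Neither mutant overlapped TKO, while the mutants overlapped each other, and *Ncam1* RNA was present in every library. In the NFIB mutant *Ncam1* fell by 2.83 ± 0.62 on the log2 scale (SE, adjusted p = 0.00992), a ratio of means of 7.10. In the CARM1 knockout the log2 fold change of -1.12 ± 0.59 did not pass (adjusted p = 0.169, and 0.0970 to 0.378 over the alternatives), except with libraries scaled by their totals alone (-1.40, adjusted p = 0.0970).

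*Ncam2*, the paralog at chr16:81200697-81626828, was far less abundant. It had 13.9, 2.62 and 3.68 CPM in TKO. No read of it was counted in the 3 CARM1 knockout libraries, and the NFIB mutant libraries had 1, 0 and 1 counts. Set against the TKO mean it was at least 36.9-fold lower in the CARM1 knockout (adjusted p = 0.00565), with the limit set at 3 counts per library. Without TKO replicate 1, its highest library, the bound was 17.3-fold. The 2 counts in the NFIB mutant gave a ratio of 163, with a 95% Poisson interval from 45.1 to 1345 that covers the counting of the mutant reads only (adjusted p = 0.00698), and a ratio of 76.3 without TKO replicate 1.

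The L1 family behaved less uniformly. *L1cam*, at chrX:73853778-73896105, had 46.8, 7.39 and 34.9 CPM in TKO and 5.15, 3.91 and 28.5 CPM in the CARM1 knockout. In the NFIB mutant it had 2.13, 7.77 and 0.381 CPM. Both mutants overlapped TKO, through the low TKO replicate 2. The NFIB mutant was called lower, by 3.11 ± 1.26 on the log2 scale (adjusted p = 0.0768), but this call was lost without TKO replicate 1 (adjusted p = 0.173), TKO replicate 3 (0.133), NFIB mutant replicate 1 (0.177) or NFIB mutant replicate 3 (0.148), with no filter on low counts (0.124) or with the replicate number as a block (0.216). In the CARM1 knockout the log2 fold change was -1.25 ± 1.17 (adjusted p = 0.426).

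*Nrcam*, at chr12:44328885-44601964, encodes a partner of ankyrins and contactins at nodes of Ranvier. It had 52.8, 43.4 and 116 CPM in TKO, and 27.3, 4.38 and 67.1 CPM in the NFIB mutant. The CARM1 knockout had 3.05, 4.02 and 52.6 CPM, the last in replicate 3, the library whose neuroendocrine sum lay within the TKO range. Both groups overlapped TKO. The log2 fold changes were -1.83 ± 1.26 in the CARM1 knockout (adjusted p = 0.279) and -1.10 ± 1.24 in the NFIB mutant (adjusted p = 0.488). Without CARM1 knockout replicate 3, *Nrcam* was called lower in that genotype, at a log2 fold change of -4.28 (adjusted p = 0.0303).

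*Chl1*, at chr6:103510586-103750211, was the 1 member whose mean was higher in the mutants. Its TKO libraries had 11.4, 4.37 and 3.86 CPM. The CARM1 knockout had 36.5, 1.57 and 0.112 CPM and the NFIB mutant 269, 7.64 and 0.953 CPM. In each mutant replicate 1 lay above TKO and replicate 3 below it. Neither log2 fold change passed, at 0.96 ± 2.03 in the CARM1 knockout (adjusted p = 0.732) and 3.82 ± 2.24 in the NFIB mutant (adjusted p = 0.195). Both changed sign without replicate 1 of the mutant, to -2.94 and -0.59. NFIB mutant replicate 1, with 269 CPM of *Chl1*, also had 1737 CPM of *Sftpb*, a surfactant protein gene, against 35.9 CPM or less in the other 8 libraries. Its *Nkx2-1*, another lung epithelial marker, was at 70.5 CPM, below the 236 to 601 CPM of TKO. CARM1 knockout replicate 1, with 36.5 CPM of *Chl1*, had 0.678 CPM of *Sftpb* and the lowest lung epithelial sum of its genotype, 2.71 CPM. The part of lung epithelial RNA in the *Chl1* level was not tested.

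The contactins were nearly absent from the mutants. *Cntn1*, at chr15:92051165-92341967, had 11, 1.01 and 3.37 CPM in TKO. The CARM1 knockout had 2, 0 and 0 counts of it and the NFIB mutant 9, 1 and 0. The ratio of the TKO mean to the CARM1 knockout was 127, with a 95% Poisson interval of 35.1 to 1048 (adjusted p = 0.0259), and 54.3 without TKO replicate 1. The ratio of means for the NFIB mutant was 25.2 (adjusted p = 0.048), and 10.8 without TKO replicate 1. That last call was lost without TKO replicate 1 (adjusted p = 0.136), NFIB mutant replicate 2 (0.134) or NFIB mutant replicate 3 (0.107).

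*Cntn2*, at chr1:132509427-132543256, encodes the contactin known as TAG-1. It had 8.12, 2.45 and 23.4 CPM in TKO. The NFIB mutant libraries held no read of it, which put it at least 60.8-fold lower (adjusted p = 0.0291), or 28.4-fold without TKO replicate 3. The CARM1 knockout libraries had 0.0678, 0 and 2.30 CPM, again highest in replicate 3. All 3 lay below TKO, but the log2 fold change of -3.82 ± 1.87 did not pass (adjusted p = 0.160). Without CARM1 knockout replicate 3 it did, at a log2 fold change of -8.15 (adjusted p = 0.0264), and DESeq2 called it as well (0.0733), as did the fit with the replicate number as a block (0.0555).

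The synaptic members were *Nlgn1* and *Cadm1*, and the first was nearly absent from the mutants. *Nlgn1*, at chr3:25426215-26332460, encodes the postsynaptic partner of neurexins at excitatory synapses. It had 19.5, 25.5 and 26.2 CPM in TKO. The NFIB mutant had 3, 0 and 0 counts, a ratio of 382 with a 95% Poisson interval of 131 to 1855 (adjusted p = 0.0145). The CARM1 knockout had 0, 0.117 and 2.92 CPM, a ratio of means of 23.4 (adjusted p = 0.0662). All mutant libraries lay below TKO. The CARM1 knockout call was lost when any TKO library (adjusted p = 0.112, 0.126 and 0.108 without replicates 1, 2 and 3) or CARM1 knockout replicate 1 (0.103) or 2 (0.141) was left out.

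*Cadm1*, at chr9:47530173-47857637, encodes a synaptic and epithelial adhesion molecule. Its levels were 82.2, 66.2 and 181 CPM in TKO. They were 15.7, 4.78 and 52.8 CPM in the CARM1 knockout and 30.8, 3.58 and 0 CPM in the NFIB mutant. Every mutant library lay below every TKO library, yet the spread within the mutants was wide. Neither log2 fold change passed, at -2.17 ± 1.56 in the CARM1 knockout (adjusted p = 0.30) and -3.26 ± 1.64 in the NFIB mutant (adjusted p = 0.138). DESeq2 called the second (adjusted p = 0.0683), and so did the fit without NFIB mutant replicate 1 (0.0466).

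Levels of different genes were compared per length, as CPM per kb of annotated exon. In TKO the order was *Ncam1* with 23.6 ± 7.97 (SD, n = 3), *Cadm1* with 10.5 ± 5.96, *Nrcam* with 5.30 ± 2.96, *L1cam* with 4.04 ± 2.75, *Nlgn1* with 1.77 ± 0.275, *Cntn2* with 1.22 ± 1.16, *Ncam2* with 0.594 ± 0.549, *Cntn1* with 0.542 ± 0.551 and *Chl1* with 0.532 ± 0.342. Only *Ncam1* and *Cadm1* were neighbours whose libraries did not overlap. In the CARM1 knockout *Ncam1* remained at the top with 10.9 ± 6.61 CPM per kb. In the NFIB mutant *Chl1* had the highest mean, 7.52 ± 12.4 CPM per kb, through 1 library, and *Ncam1* followed with 3.32 ± 1.90. In both mutants every neighbouring pair overlapped.

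The genes closest to each member over the 9 libraries were taken by the root mean square difference of centred log2 CPM, among 14014 genes with a mean of at least 1 CPM. *Nlgn1* lay closest to *Ankrd34b* (0.47), *Tmem145* (0.48) and *Lmo1* (0.50). *Cntn2* lay closest to *Cnpy1* (0.44), *Zcchc18* (0.47) and *1500009C09Rik* (0.50), and *Ncam2* to *Camkv* (0.46), *Frmpd3* (0.48) and *Slc10a4* (0.58). *Cntn1* lay closest to *Gpr45* (0.69), *Glra2* (0.86) and *Cdkn1c* (0.88). These 4 members had few or no counts in most mutant libraries. *Ncam1* lay closest to *Gm1673* (0.40), *Mgll* (0.44) and *Erc2* (0.47), and *Nrcam* to *Npr2* (0.41), *Patj* (0.79) and *Plcl1* (0.79). *L1cam* lay closest to *Il17d* (0.77), *Tm6sf1* (0.78) and *Ctsf* (0.82), and *Cadm1* to *Grk3* (0.80), *Tbc1d8* (0.94) and *Tbc1d30* (0.96). *Chl1* had the loosest matches, *Vipr2* (1.26), *Sp5* (1.27) and *Napsa* (1.73). *Napsa*, like *Sftpb*, is expressed by alveolar type II cells.

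Genes that work with these proteins were examined as a list of 41, of which 37 were tested. In the CARM1 knockout 11 were called lower and 3 higher, and in the NFIB mutant 21 were called lower and 3 higher, beside the 18.3% lower and 20.5% higher of all genes in the first and the 23.5% and 22.3% in the second. Their median log2 fold change was -1.65 and -3.50, beside -0.03 and -0.05 over all genes. Without CARM1 knockout replicate 3, 23 partner genes were called in that genotype, in either direction. That fit called 3207 higher and 3209 lower of all 16185 genes tested. No partner gene was called between the mutants by edgeR, beside 0 of all 15514 genes, while DESeq2 called 1, *Ntm*.

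Presynaptic neurexins and the MDGA proteins, which bind neuroligins on the same cell, were tested beside *Nlgn1*. *Nrxn3* had 7.69, 9.45 and 23.6 CPM in TKO and no count in any of the 6 mutant libraries (adjusted p = 0.00688 in the CARM1 knockout and 0.00547 in the NFIB mutant). *Mdga1* had 75.3, 173 and 142 CPM in TKO, 10.4, 5.25 and 17.0 CPM in the CARM1 knockout and 7.96, 1.05 and 0.953 CPM in the NFIB mutant. *Mdga2* had 28.7, 30.1 and 49.3 CPM in TKO and 2.27 CPM or less in every mutant library. Of the 6 tested genes of this group, 3 were called lower in the CARM1 knockout and 5 in the NFIB mutant, beside 18.3% and 23.5% of all genes. *Nlgn2*, with 138 to 194 CPM in TKO and 91.0 to 161 CPM in the mutants, was not called in either. In the CARM1 knockout all its libraries lay below TKO, and its log2 fold change of -0.68 missed only the cutoff of 0.8 (adjusted p = 0.0230).

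Among immunoglobulin-type relatives, 2 of 12 tested were called lower in the CARM1 knockout, a share close to the 18.3% of all genes. In the NFIB mutant 8 were called lower, beside 23.5% of all genes. *Cntn3*, another contactin, had 36.5, 21.4 and 27.5 CPM in TKO and 0.843 CPM or less in the mutants. *Cadm3* had 9.22, 12.3 and 72.1 CPM in TKO and 3.71 CPM or less in the mutants. *Nptn*, which encodes neuroplastin, rose in both mutants, from 73.7, 95.1 and 132 CPM to 224, 273 and 256 CPM in the CARM1 knockout (log2 fold change 1.32 ± 0.22, adjusted p = 0.00447) and 219, 255 and 256 CPM in the NFIB mutant (1.28 ± 0.22, adjusted p = 0.00401).

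Among partners of the contactins, 2 of 4 were called lower in the CARM1 knockout and 3 in the NFIB mutant, beside 18.3% and 23.5% of all genes. *Cntnap2*, which encodes the CASPR2 protein that pairs with contactin 2, had 4.85, 1.53 and 25.6 CPM in TKO, 0, 0 and 0.674 CPM in the CARM1 knockout and no count in the NFIB mutant. *Cntnap1* fell from 49.4, 54.0 and 91.9 CPM to 11.3 to 31.6 CPM in the CARM1 knockout and 19.4 to 41.7 CPM in the NFIB mutant. *St8sia2*, the enzyme that builds polysialic acid on NCAM1, had 28.2, 4.59 and 13.3 CPM in TKO and 0.136 CPM or less in the mutants (adjusted p = 0.0074 and 0.00581). The second such enzyme, *St8sia4*, was called lower in the NFIB mutant only, and the difference between the mutants was not called.

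Membrane adaptors were divided. *Ank2*, an ankyrin that binds the L1 family, had 149, 253 and 440 CPM in TKO, 16.9, 10.5 and 4.78 CPM in the CARM1 knockout and 3.65, 10.6 and 24.3 CPM in the NFIB mutant (log2 fold changes -4.71 ± 0.84 and -4.45 ± 0.83). The scaffold gene *Magi2* fell from 17.4, 19.1 and 20.3 CPM to between 3.21 and 9.94 CPM in the mutants. Of the 6 adaptors 3 were called lower in each mutant, beside 18.3% of all genes in the CARM1 knockout and 23.5% in the NFIB mutant. None was called higher, beside 20.5% and 22.3% of all genes, and *Dlg4*, *Ank3* and *Epb41l3* were not called in either mutant. *Fgfr1*, a receptor that NCAM1 and L1CAM can engage, rose from 32.6, 30.2 and 19.9 CPM to 282 to 479 CPM in the CARM1 knockout (log2 fold change 3.74 ± 0.29, adjusted p = 0.000386) and 452 to 556 CPM in the NFIB mutant (4.24 ± 0.30, adjusted p = 0.000254). The fibroblast sum was also higher in every mutant library than in TKO, but the order among the mutants differed. That sum was 15053 to 26808 CPM in the CARM1 knockout and 10242 to 16333 CPM in the NFIB mutant. CARM1 knockout replicate 3 had the highest fibroblast sum and the lowest *Fgfr1* of the mutant libraries. The part of fibroblast RNA in the *Fgfr1* level was not tested. *Adam17*, a sheddase that cuts L1CAM and NCAM1, rose from 36.9 to 54.8 CPM to 77.9 to 90.4 CPM and 67.4 to 130 CPM.

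The 83 peaks of the members lay mostly in introns (71), with 10 at annotated starts, 1 further upstream and 1 in an exon. Of the 80 tested, 53 were called lower and 13 higher in the CARM1 knockout, beside 32.4% of all peaks called lower and 38.7% called higher. In the NFIB mutant 52 were called lower and 15 higher, beside 34.0% and 39.3% of all peaks. In both mutants together 51 were lower and 12 higher, beside 30.8% and 35.0% of all peaks, and none was called in opposite directions. For 51 of the 83 every mutant library lay below every TKO library and for 7 above, beside 28.6% and 33.1% of all peaks tested. Their median log2 fold change was -2.39 and -2.58, against 0.22 in both comparisons over all peaks. No member peak was called between the mutants by edgeR or DESeq2, and 9 had an unadjusted p under 0.05. Over all peaks edgeR called 0 of 111116 between the mutants, with 6813 at an unadjusted p under 0.05. DESeq2 called 523 higher and 537 lower of 111002 peaks. With library totals alone as the scale, 45 member peaks were lower and 15 higher in the CARM1 knockout, and 48 and 16 in the NFIB mutant, while the median over all peaks moved to 0.79 in both and the share of higher among all called peaks from 54.4 to 65.9% and from 53.6 to 64.3%.

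The genes differed in how their peaks divided. All 8 peaks of *Cntn2*, both of *Ncam2* and both of *L1cam* were lower in each mutant. *Nlgn1* had 14 of 15 tested peaks lower in each mutant, 13 of them in introns, the farthest 757 kb from the start. Its remaining tested peak was called higher in the CARM1 knockout only. *Nrcam* had 7 lower and 4 higher, and *Cadm1* 6 lower and 3 higher, in each mutant. *Ncam1* had 6 lower and 3 higher in the CARM1 knockout and 7 and 3 in the NFIB mutant, out of 15. *Chl1* had 7 lower and 1 higher of 11 in the CARM1 knockout and 5 and 3 in the NFIB mutant. *Cntn1* had 3 tested peaks, 1 lower in both mutants, 1 higher in both and the other higher in the NFIB mutant only.

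**Figure D2:**
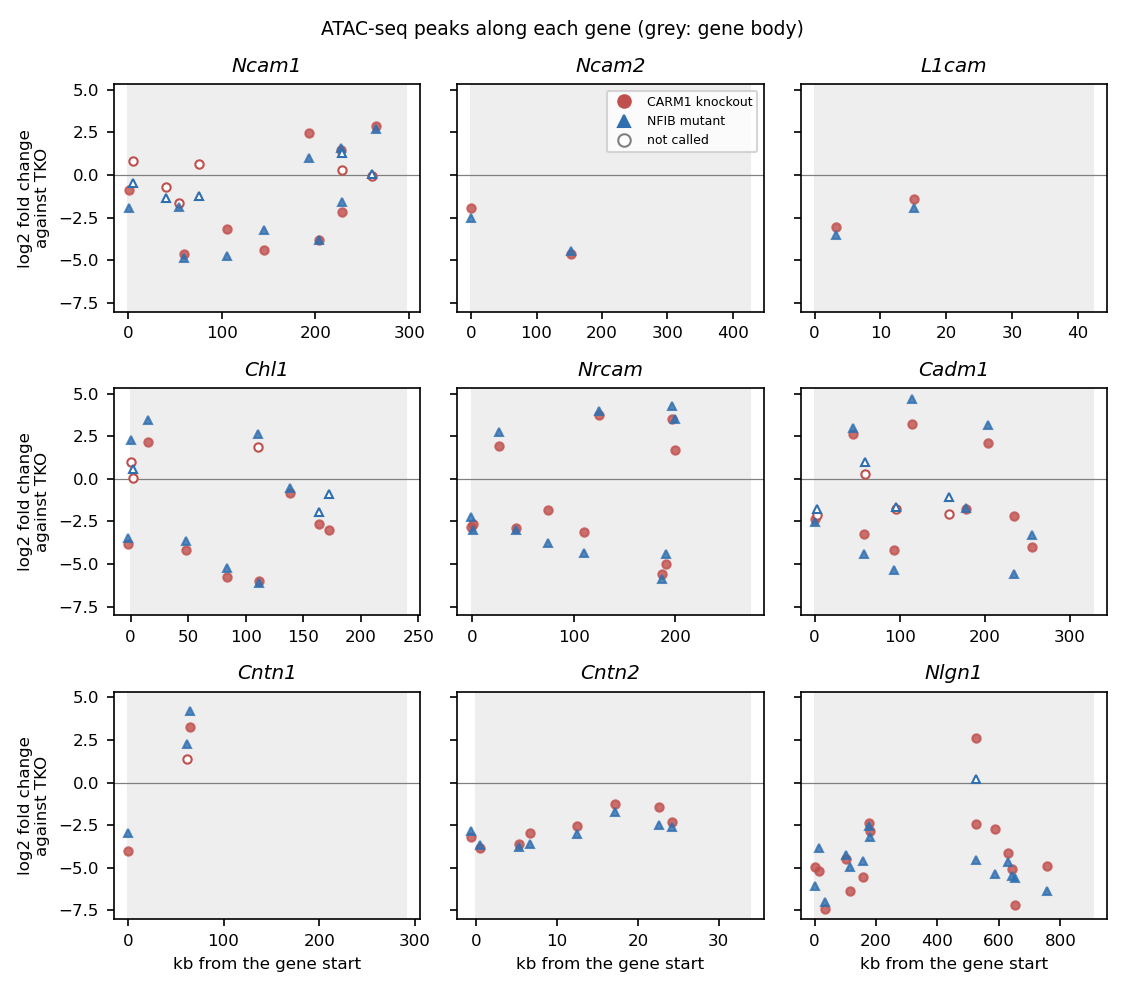
Log2 fold change of each tested ATAC-seq peak against TKO (vertical axis) by the distance of its middle from the gene start in kb (horizontal axis). Circles are the CARM1 knockout, triangles the NFIB mutant, open symbols were not called, and grey marks the gene body. *Nlgn1* and *Cntn2* lie below 0 nearly throughout, while *Nrcam*, *Cadm1* and *Ncam1* hold both falling and rising peaks.

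At the gene starts, the strongest peak of 7 members fell in both mutants. The *Nlgn1* start had 31.7, 32.1 and 31.9 CPM in TKO, 0.233, 0.749 and 2.13 CPM in the CARM1 knockout and 0.538, 0.361 and 0.510 CPM in the NFIB mutant (log2 fold changes -4.94 ± 0.64 and -6.08 ± 0.68, adjusted p = 0.000163 and 6.85e-05). The gene A830092H15Rik shares this peak. The *Ncam1* start kept more of its accessibility, with 80.8, 84.3 and 79.5 CPM in TKO, 33.6, 58.9 and 41.9 CPM in the CARM1 knockout and 22.1, 15.2 and 28.1 CPM in the NFIB mutant (-0.86 ± 0.24, adjusted p = 0.00903, and -1.90 ± 0.25, adjusted p = 0.000144). The CARM1 knockout call at *Ncam1* was lost when libraries were scaled by their totals (adjusted p = 0.375) or on start sites of evenly expressed genes (0.102).

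The *Nrcam* start fell from 74.7, 65.3 and 56.8 CPM to 4.08, 6.80 and 20.5 CPM in the CARM1 knockout and 11.1, 7.03 and 6.12 CPM in the NFIB mutant. The *Cadm1* start fell from 47.9, 46.9 and 54.5 CPM to 4.99, 12.7 and 11.3 CPM and to 19.6, 5.17 and 1.10 CPM. Both genes thus had start peaks called lower in each mutant (adjusted p = 0.00123 and 0.000592 for *Nrcam*, 0.017 and 0.0121 for *Cadm1*) with RNA that did not pass. The *Cntn2* start fell from 11.8, 7.29 and 12.5 CPM to between 0.499 and 1.06 CPM in the mutants. The *Cntn1* start fell from 9.05, 5.75 and 14.2 CPM to between 0.346 and 2.06 CPM. The *Ncam2* start, at 6.57, 5.35 and 10.2 CPM in TKO, kept 1.52 to 2.39 CPM in the CARM1 knockout, where no *Ncam2* read was counted, and 0.433 to 2.30 CPM in the NFIB mutant.

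*Chl1* and *L1cam* were the exceptions at the start. The *Chl1* start had 0.701, 1.08 and 0.211 CPM in TKO, 2.89, 0.691 and 0.387 CPM in the CARM1 knockout and 6.34, 2.26 and 1.06 CPM in the NFIB mutant. It was called higher in the NFIB mutant (log2 fold change 2.25 ± 0.91, adjusted p = 0.0457), a call lost without TKO replicate 3 (adjusted p = 0.109) or NFIB mutant replicate 1 (0.233). No peak lay within 1000 bp of the annotated *L1cam* start. A peak 15.1 kb inside the gene, at the start of another annotated transcript, had 12, 6.92 and 9.25 CPM in TKO and fell to 2.89, 3.07 and 4.86 CPM in the CARM1 knockout and 2.51, 2.77 and 2.20 CPM in the NFIB mutant (adjusted p = 0.00877 and 0.00163).

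**Figure D3:**
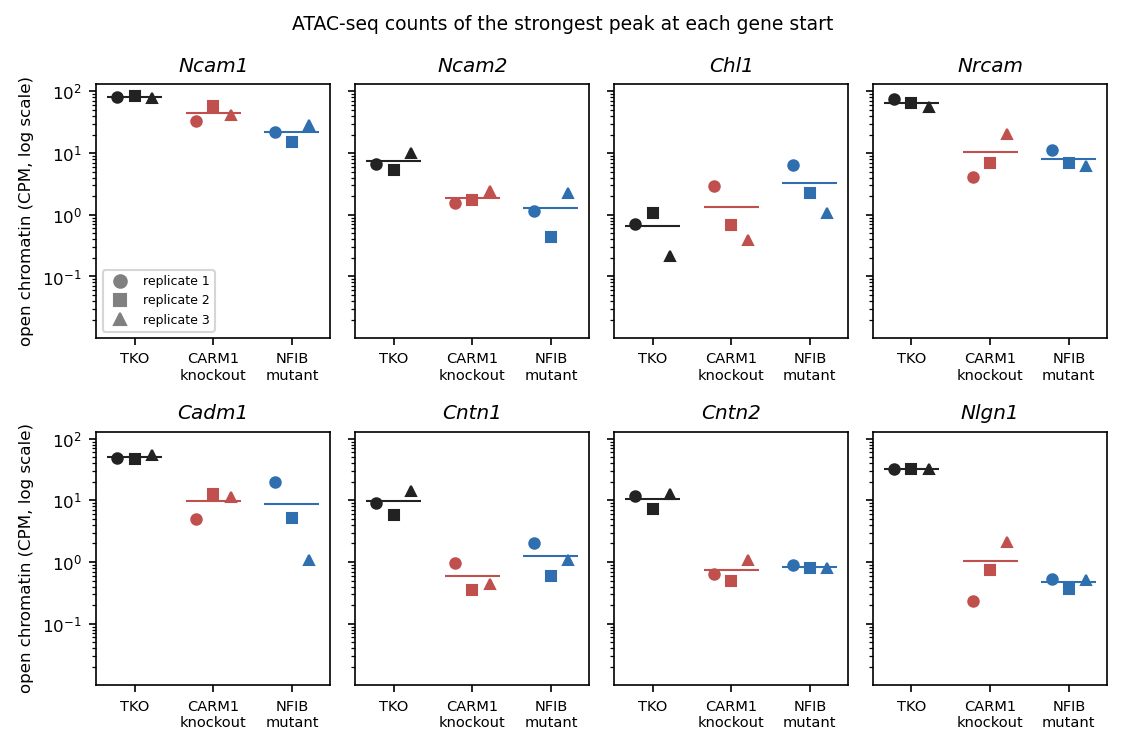
ATAC-seq level in CPM on a log scale of the strongest peak within 1000 bp of the start of each gene that has one. Each point is 1 library, the shape gives its replicate number and horizontal lines are means. The mutant libraries of all genes shown except *Chl1* lie below the TKO libraries.

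For some members, the library with the highest RNA in a genotype carried the same replicate number as the library with the highest start peak. Among members with 1 highest RNA library of more than 3 counts, this held for 5 of 6 in the CARM1 knockout, 4 of 5 in the NFIB mutant and 2 of 8 in TKO. The share over all genes was not computed, so these counts do not set the members apart. For *Ncam1* the 3 CARM1 knockout libraries had the same order in both assays (replicates 2, 3 and 1), as did the 3 NFIB mutant libraries (replicates 3, 1 and 2). For *Chl1* replicate 1 was highest and replicate 3 lowest in both assays and both mutants. The same few libraries enter the count for every member, and while the study took both assays from the same tumors, the labels do not say whether equal numbers mark 1 tumor.

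The sequences below are the middle 300 bases of 6 intronic peaks, from GRCm38.p6, plus strand. They are shown as the largest fall or rise of their gene by the mean of both log2 fold changes, among peaks called in both mutants whose mutant libraries all lay beyond TKO and that reached a mean of 1 CPM. Capitals mark a match to 1 of 5 motifs searched on both strands, the NFI element TTGGCA, the NFI palindrome (TTGGC and its reverse complement around a spacer), the E-box CAGCTG, the AP-1 element TGANTCA and a REST element. None of the windows overlaps an annotated exon. The 4 falls are from *Nlgn1*, *Nrcam*, *Ncam1* and *Chl1*, and the 2 rises from *Nrcam* and *Cadm1*. The windows of the *Ncam1* rise, the *Ncam2* fall and the *Cadm1* fall met the same criteria and are not shown. They held none of the motifs.
Nlgn1 fall, chr3:26297904-26298203: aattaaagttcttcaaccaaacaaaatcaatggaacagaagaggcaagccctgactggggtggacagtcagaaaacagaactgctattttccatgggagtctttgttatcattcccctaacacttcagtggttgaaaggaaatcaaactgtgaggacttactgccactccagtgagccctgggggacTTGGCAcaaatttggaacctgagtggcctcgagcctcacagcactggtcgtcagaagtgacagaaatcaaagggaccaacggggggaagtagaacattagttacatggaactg
Nrcam fall, chr12:44515160-44515459: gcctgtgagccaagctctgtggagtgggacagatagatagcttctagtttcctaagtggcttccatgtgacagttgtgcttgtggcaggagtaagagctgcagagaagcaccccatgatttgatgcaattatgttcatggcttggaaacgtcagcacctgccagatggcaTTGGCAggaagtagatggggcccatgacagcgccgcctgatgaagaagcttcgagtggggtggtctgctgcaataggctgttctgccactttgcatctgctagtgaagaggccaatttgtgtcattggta
Ncam1 fall, chr9:49738566-49738865: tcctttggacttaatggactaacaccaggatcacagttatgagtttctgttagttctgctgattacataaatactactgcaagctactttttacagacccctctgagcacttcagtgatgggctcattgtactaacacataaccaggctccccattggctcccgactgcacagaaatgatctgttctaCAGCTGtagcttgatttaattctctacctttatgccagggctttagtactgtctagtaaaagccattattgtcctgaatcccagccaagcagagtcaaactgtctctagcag
Chl1 fall, chr6:103622132-103622431: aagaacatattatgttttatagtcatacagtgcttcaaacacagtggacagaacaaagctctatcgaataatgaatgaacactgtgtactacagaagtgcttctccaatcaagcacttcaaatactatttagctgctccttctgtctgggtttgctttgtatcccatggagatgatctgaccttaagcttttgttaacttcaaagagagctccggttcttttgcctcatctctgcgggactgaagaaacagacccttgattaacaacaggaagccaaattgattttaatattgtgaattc
Nrcam rise, chr12:44525048-44525347: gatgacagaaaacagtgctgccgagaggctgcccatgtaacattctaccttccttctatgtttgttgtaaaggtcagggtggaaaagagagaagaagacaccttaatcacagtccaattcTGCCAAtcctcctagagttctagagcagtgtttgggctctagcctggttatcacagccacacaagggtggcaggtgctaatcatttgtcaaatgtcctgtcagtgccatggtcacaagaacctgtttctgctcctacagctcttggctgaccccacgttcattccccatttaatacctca
Cadm1 rise, chr9:47733997-47734296: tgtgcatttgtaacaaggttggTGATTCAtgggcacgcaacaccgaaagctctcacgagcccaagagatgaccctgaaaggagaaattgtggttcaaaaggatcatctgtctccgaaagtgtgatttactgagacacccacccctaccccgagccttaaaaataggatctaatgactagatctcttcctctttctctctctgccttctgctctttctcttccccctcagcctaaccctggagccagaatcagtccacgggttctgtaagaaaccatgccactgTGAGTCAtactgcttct

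The *Nlgn1* peak, 34.4 kb into the gene, held 1 NFI element. It had 7.40, 14.5 and 2.83 CPM in TKO and 0.118 CPM or less in every mutant library (log2 fold changes -7.40 ± 0.92 and -7.03 ± 0.90, adjusted p = 0.000137 and 0.000135). The *Nrcam* peak that fell, 186.4 kb into the gene, also held 1. It had 5.90, 7.60 and 3.72 CPM in TKO and 0.192 CPM or less in the mutants (adjusted p = 0.000139 and 0.000104). The *Ncam1* peak, 60.2 kb into the gene, held 1 E-box and fell from 2.52, 2.47 and 3.21 CPM to 0.207 CPM or less (adjusted p = 0.000379 and 0.000284). The *Chl1* peak, 111.7 kb into the gene, held none of the motifs in this window. It was the strongest of these peaks in TKO, with 38.2, 36.4 and 6.0 CPM, and had 0.807 CPM or less in the mutants (adjusted p = 0.000271 and 0.000224), while *Chl1* RNA was not called in either mutant.

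The *Nrcam* peak that rose lay 196.3 kb into the gene, 9.89 kb beyond the one that fell. It held 1 NFI element on the opposite strand. It had 1.02, 0.896 and 1.01 CPM in TKO, 6.12, 15.2 and 11.8 CPM in the CARM1 knockout and 15.2, 16.2 and 24.9 CPM in the NFIB mutant (log2 fold changes 3.49 ± 0.40 and 4.26 ± 0.42, adjusted p = 9.15e-05 and 3.46e-05). The *Cadm1* peak, 204.0 kb into the gene, held 2 AP-1 elements and rose from 0.638, 0.865 and 0.549 CPM to 2.33, 2.29 and 4.11 CPM in the CARM1 knockout and 8.16, 8.97 and 1.41 CPM in the NFIB mutant (adjusted p = 0.0157 and 0.00206). The largest rise in *Ncam1* by the same criteria lay 265.1 kb into the gene, where the peak also overlaps Gm11149. It went from 1.02, 1.61 and 0.930 CPM to 8.73, 7.64 and 10.3 CPM in the CARM1 knockout and 5.98, 6.14 and 11.5 CPM in the NFIB mutant (adjusted p = 0.000317 and 0.000379).

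The largest falls in *Cadm1*, *Ncam2* and *L1cam* followed the same criteria. The *Cadm1* peak 94.0 kb into the gene had 23.1, 23.7 and 11.3 CPM in TKO, 0.388, 0.384 and 2.52 CPM in the CARM1 knockout and 1.02, 0.313 and 0.118 CPM in the NFIB mutant (adjusted p = 0.00255 and 0.00086). The *Ncam2* peak 152.7 kb into the gene fell from 3.76, 2.63 and 2.70 CPM to 0.169 CPM or less (adjusted p = 0.000196 and 0.0002). The *L1cam* peak 3.24 kb into the gene, which overlaps *Arhgap4* and *Avpr2* as well, fell from 4.18, 2.94 and 1.48 CPM to 0.465 CPM or less (adjusted p = 0.00135 and 0.00063).

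Over the member peaks, motifs were counted in the middle 300 bases alone, beside those of all peaks called in the same direction, searched alike. The NFI element was found in 15 of 51 member peaks lower in both mutants (29.4%) and in 27.2% of all peaks so called. The E-box was found in 16 of the 51 (31.4%) and in 28.1% of all such peaks. The AP-1 element was found in 0 of the 51, beside 7.89% of all such peaks, and in 5 of the 12 member peaks higher in both mutants (41.7%), beside 41.7% of all peaks higher in both. The E-box was found in 0 of these 12, beside 18.8%, and the NFI element in 3 (25.0%), beside 19.2%. Over all 111664 peaks the NFI element, E-box and AP-1 element were found in 21.3, 22.7 and 23.7%. The NFI palindrome, in 0.10% of all peaks, and the REST element, in 0.00448%, were found in no member window. A match is a description of letters in the window, not a bound site.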

How the data were processed

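RNA-seq and ATAC-seq were performed on 3 tumors for each of 3 genotypes, the same tumors for both assays according to the study. According to the methods of the study, RNA reads were trimmed with Trim Galore, aligned to mm10 with hisat2 and counted by htseq-count, and the authors deposited these raw counts per gene. ATAC reads were aligned with Bowtie2, duplicates were removed with Picard and peaks were called with MACS2, while the labels name Genrich. The deposited peak table holds raw counts per peak from featureCounts 1.6.3, per the file header, on peaks merged over the series. Whether counting used the strand is not given in the sources used here, so reads of overlapping or antisense genes cannot be told apart. Entries that name no gene were left out, of which reads outside genes made up 10.0 to 12.2% in TKO and 3.65 to 5.17% in the mutants. Low genes and peaks were removed with edgeR's filterByExpr, libraries were scaled by TMM, and all 9 libraries of an assay were fitted together in edgeR 4.0.16 (R 4.3.3). DESeq2 1.42.0, other scalings and filters, and fits without each library were run as alternatives. The tests were checked on simulated counts. SE is the log2 fold change divided by the square root of the F statistic. Replicates were independent animals.

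The members and gene lists were chosen with earlier results of these data known. Partner genes were named where both mutants were called in 1 direction, every mutant library lay beyond every TKO library and the higher genotype had at least 1 CPM, at most 3 per role and direction. *Nlgn2*, *St8sia4*, *Dlg4*, *Ank3*, *Epb41l3* and *Ntm* were named after their values were seen. Peaks were named within 1000 bp of a start or as the largest rise or fall of a gene by the same criteria. Gene positions came from the GENCODE annotation of GRCm38 and sequences from GRCm38.p6. Column names were joined to genotypes through the names the study uses.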

Additional observations from a re-analysis of the deposited data

How the results depend on the processing

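Of the counts of members, partner genes and member peaks called, 210 of 222 recomputed values stayed within 1.5 times the count reported. These values include the counts between the mutants, which were 0 in the main fits and had little room to change. A fall from 3 to 2 members in the CARM1 knockout also stayed within the limit. A minimum of 10 counts in every library, which removes genes and peaks that reach 0 in a mutant, left 0 members and 9 partner genes in the CARM1 knockout and 1 and 11 in the NFIB mutant, with 5 higher and 16 lower member peaks in the first and 6 and 15 in the second. Leaving out 1 library gave 2 (without TKO replicate 1) to 5 (without CARM1 knockout replicate 3) members and 12 to 23 partner genes in the CARM1 knockout, and 4 to 6 and 18 to 29 in the NFIB mutant. DESeq2 called 4 and 7 members, and 1 partner gene (*Ntm*) between the mutants. Within each assay, same-numbered libraries of different genotypes did not deviate together (correlations -0.30 to 0.12 for RNA and -0.14 to 0.12 for ATAC), so the numbers were not taken to pair genotypes. With the replicate number as a block, 5 members were called in the CARM1 knockout, with *Nrcam* and *Cntn2* added, and 5 in the NFIB mutant, with *L1cam* lost.

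Among single genes and peaks, 1028 of 1062 values kept their direction and side of the threshold, and 8 changed sign. The RNA log2 fold change of *Chl1* in the CARM1 knockout was -2.02 with the block and between -2.94 and 1.65 with 1 library left out, and in the NFIB mutant between -0.59 and 4.49. Between the mutants, leaving out 1 library gave -6.77 to 1.56 for *Chl1*, -3.19 to 0.33 for *Nrcam*, -0.14 to 3.76 for *Cadm1* and -4.98 to 0.37 for *Cntn1*. The *Chl1* start peak in the CARM1 knockout ranged from -0.30 to 1.5. The cause of these changes was not tested. Scaling by library totals alone moved the median RNA log2 fold change of all genes from -0.03 to -0.30 in the CARM1 knockout and from -0.05 to -0.37 in the NFIB mutant. Scaling on start sites of evenly expressed genes gave 14 higher and 47 lower member peaks in the first and 17 and 48 in the second, with 62.7 and 62.8% of all called peaks higher.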
